A study of Homo sapiens with 6 samples.

Results

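Airway mucins and the proteins that control or process them were followed in A549 cells, a human lung adenocarcinoma line, after transfection with miR-19a or with the control miR-NC. The 10 genes are MUC5AC, MUC5B, MUC1, MUC13, MUC16, SPDEF, FOXA1, FOXA2, FOXA3 and AGR2, out of 57905 gene identifiers in the deposited table. They were picked by name, after the MUC5AC count had been seen to be far lower with miR-19a, so the level of MUC5AC is described here and not tested. Each had a mean count of at least 10 over the 6 libraries, and all 10 were therefore among the 15053 genes tested.

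The cells received miR-19a or, as the control, miR-NC, each at 25 nM with Lipofectamine 3000, in medium with fetal bovine serum, and RNA was taken 24 h later. Each arm has 3 libraries of poly(A)-selected RNA, read as pairs of 150 nt, and the comparison asks which transcripts differ between the 2 arms. The libraries hold between 15699037 counts (miR-NC replicate 3) and 17957932 counts (miR-19a replicate 3). The labels do not say whether replicates were separate cultures, so a p-value here reflects only how much the 6 samples differ from each other, and that spread may be technical. The libraries do not measure mature miRNA, and the cells are 1 cancer line in a transient transfection.

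Mucins are large glycoproteins whose protein core carries dense O-linked sugar chains. MUC5AC and MUC5B are the gel-forming mucins of airway mucus, secreted from goblet cells and submucosal glands, whereas MUC1, MUC13 and MUC16 are anchored in the apical membrane. In the airway, SPDEF and FOXA3 drive mucous differentiation, FOXA2 restrains it in mice, and AGR2 is a protein disulfide isomerase of the endoplasmic reticulum needed for mucin folding in mouse intestine.

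The transfected miRNA is shown first because its seed defines the matches searched for in the 3′ UTRs. The labels do not name the arm, and the 3p arm is the one printed, from RefSeq (GRCh38.p14, chr13:91350939-91350961, plus strand), with the seed (bases 2 to 8) in capitals.
miR-19a-3p: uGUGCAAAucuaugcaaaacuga

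No match to this seed, down to the 6-base core TTGCAC, lay in the annotated 3′ UTR of any of the 10 members (6308 bp in all, 1 transcript a gene, from GENCODE v29 on GRCh38). Taking the longest 3′ UTR of each gene instead (7654 bp) also gave 0 of 10. Among 12418 tested genes with an annotated 3′ UTR, 28.2% had a match of any class and 18.9% one of at least 7 bases, in UTRs with a median length of 1003 bp, against a median of 518 bp in the members. A match is a string of letters and not a shown binding site, and whether any is used in these cells was not tested.

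The secreted mucins were lower with miR-19a. MUC5AC (ENSG00000215182, chr11:1157953-1201138, plus strand of GRCh38) had 164, 200 and 221 counts in the miR-19a libraries and 491, 461 and 501 counts in the miR-NC libraries. Scaled to library size with TMM factors (CPM), that is 10.1, 11.7 and 12.4 with miR-19a and 29.3, 28.4 and 31.6 with miR-NC. Every miR-19a library lay well below every miR-NC library, and the gap between the groups was wider than the spread within either. The means were 11.4 ± 1.17 CPM with miR-19a and 29.8 ± 1.67 CPM with miR-NC (SD, n = 3 each), a ratio of 0.383 and a log2 fold change of -1.38 (SE 0.086). Among the 15053 genes tested, MUC5AC ranked 48 from the most lowered, and 198 genes (1.32%) had a log2 fold change of -1 or less. Because MUC5AC was chosen for its fall in these libraries, its separation, SE and rank are description only. In bulk RNA, fewer cells that express a gene and less RNA per cell cannot be told apart.

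MUC5B (ENSG00000117983, chr11:1223066-1262172, plus strand), the neighbouring gel-forming mucin on the same chromosome, fell by much less. It had 207, 236 and 288 counts with miR-19a and 325, 365 and 266 counts with miR-NC, which is 12.8, 13.8 and 16.1 CPM with miR-19a and 19.4, 22.5 and 16.8 CPM with miR-NC. The groups did not overlap in CPM, although the highest miR-19a library and the lowest miR-NC library lay close together. The log2 fold change was -0.45 (SE 0.095, edgeR quasi-likelihood test, Benjamini-Hochberg adjusted p = 5.8e-05), a ratio of means of 0.729. Of the members with a ratio below 0.5, MUC5AC was the nearest to it, and of those above 0.5, MUC5B was the nearest. MUC5B-AS1, an antisense RNA annotated over MUC5B, had 0 counts in all 6 libraries.

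**Figure D1:**
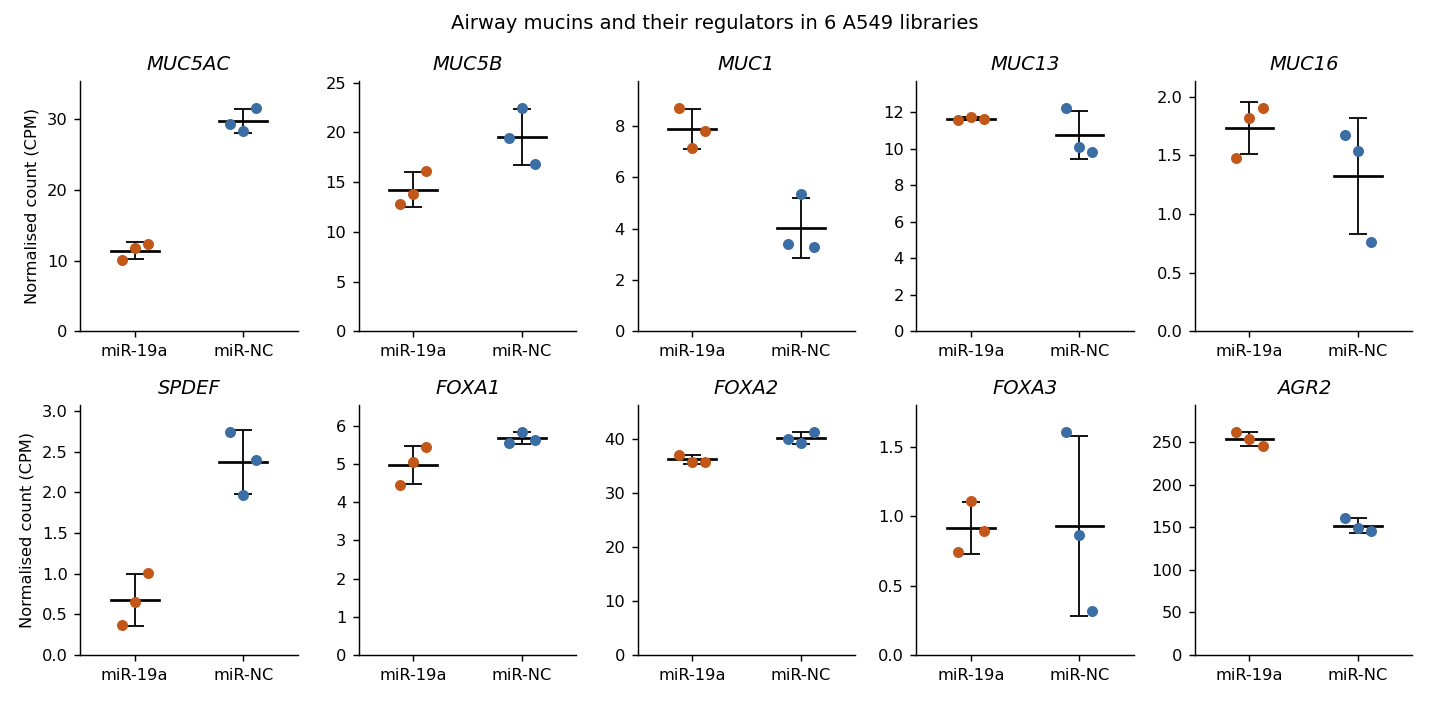
Normalised counts (CPM, TMM-scaled, linear axes from 0, each gene on its own scale) of the 10 genes in 3 miR-19a and 3 miR-NC libraries of A549 cells; points are libraries, and bars are the mean and SD. MUC5AC stood at 10.1 to 12.4 CPM with miR-19a and 28.4 to 31.6 CPM with miR-NC, whereas AGR2 stood at 246 to 262 CPM with miR-19a and 145 to 161 CPM with miR-NC.

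Setting MUC5AC aside, 2 of the other 9 members rose (MUC1 and AGR2), 3 fell (MUC5B, SPDEF and FOXA2) and 4 did not pass an adjusted p of 0.05 (MUC13, MUC16, FOXA1 and FOXA3). Their median log2 fold change was -0.03, against -0.003 over all genes tested. In the same fit 43.9% of all 15053 genes passed, 23.0% higher and 20.9% lower with miR-19a, and because the genes were chosen with this comparison known, nothing is read from the share. The CPM values of the groups did not overlap for 6 of the 9, 2 above and 4 below, against 50.6% of all genes tested (26.3% above and 24.3% below).

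**Figure D2:**
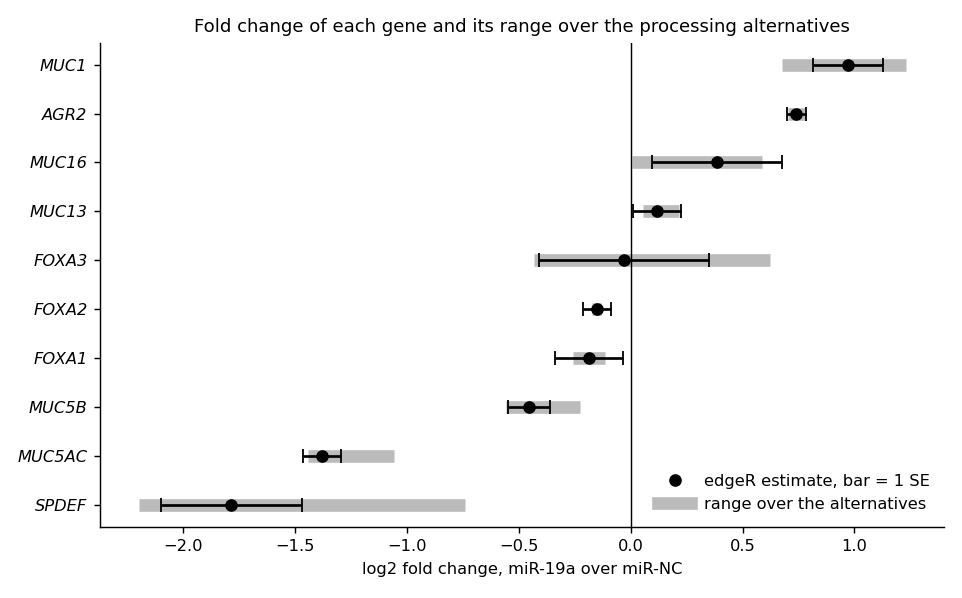
Log2 fold change, miR-19a over miR-NC, of the 10 genes in order of size; points are edgeR estimates from 3 libraries a group, black bars span 1 SE to each side, and grey bars span the values under the processing alternatives. SPDEF (-1.79) and MUC5AC (-1.38) lie farthest to the left, MUC1 (0.97) and AGR2 (0.74) farthest to the right, and the grey bar of FOXA3 crosses 0.

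Of the membrane mucins, MUC1 rose and the others did not pass the test. MUC1 (ENSG00000185499, chr1:155185824-155192916, minus strand), a transmembrane mucin whose cytoplasmic tail takes part in signalling, had 141, 122 and 139 counts with miR-19a and 57, 87 and 52 counts with miR-NC. In CPM this is 8.70, 7.15 and 7.79 with miR-19a and 3.40, 5.36 and 3.28 with miR-NC. All miR-19a libraries were above all miR-NC libraries, of which replicate 2 was the highest. The log2 fold change was 0.97 (SE 0.16, edgeR, Benjamini-Hochberg adjusted p = 4.5e-07), opposite in sign to both secreted mucins. A second coding gene annotated over MUC1, ENSG00000273088, had 0 counts in every library.

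MUC13 (ENSG00000173702, chr3:124905442-124953819, minus strand), a membrane mucin with EGF-like domains, stood at 11.6, 11.7 and 11.6 CPM with miR-19a and 12.2, 10.1 and 9.85 CPM with miR-NC. The groups overlapped, and the log2 fold change was 0.12 with a 95% interval of -0.10 to 0.33 (edgeR, Benjamini-Hochberg adjusted p = 0.41). MUC16 (ENSG00000181143, chr19:8848844-8981342, minus strand), the very large mucin that carries the CA-125 antigen, had only 24, 31 and 34 counts with miR-19a and 28, 25 and 12 counts with miR-NC. These groups overlapped too, and at this depth the interval of the log2 fold change ran from -0.18 to 0.96 around 0.39 (edgeR, Benjamini-Hochberg adjusted p = 0.29). A MUC16 change nearly as large as that of MUC1 is thus within the interval.

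Among the 4 transcription factors, SPDEF had the largest fold change. SPDEF (ENSG00000124664, chr6:34537802-34556333, minus strand), the ETS-family factor of goblet cell differentiation, had 6, 11 and 18 counts with miR-19a and 46, 32 and 38 counts with miR-NC. That is 0.370, 0.645 and 1.01 CPM with miR-19a and 2.75, 1.97 and 2.40 CPM with miR-NC. The lowest miR-NC library held more SPDEF than the highest miR-19a library, and the counts summed to 35 over the miR-19a libraries and 116 over the miR-NC libraries. The log2 fold change was -1.79 (SE 0.31, edgeR, Benjamini-Hochberg adjusted p = 2.5e-06), rank 18 from the most lowered of 15053. The size is loosely fixed at counts this low, and on the log2(FPKM + 1) scale, which understates changes of low genes, it was -0.74.

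Of the FOXA factors, forkhead pioneer factors of endoderm-derived epithelium, FOXA2 passed the test by a narrow margin and FOXA1 and FOXA3 did not pass. FOXA2 (ENSG00000125798, chr20:22581005-22585455, minus strand) had 37.2, 35.8 and 35.8 CPM with miR-19a and 40.1, 39.3 and 41.5 CPM with miR-NC. Its groups did not overlap, and the log2 fold change was -0.15 (SE 0.062, edgeR, Benjamini-Hochberg adjusted p = 0.042). That call was lost under 8 of 15 alternatives, with adjusted p up to 0.118, among them DESeq2 (Benjamini-Hochberg adjusted p = 0.0837).

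FOXA1 (ENSG00000129514, chr14:37589984-37596059, minus strand) had 4.44, 5.04 and 5.44 CPM with miR-19a and 5.55, 5.85 and 5.62 CPM with miR-NC. Every miR-19a library was below every miR-NC library, yet the log2 fold change of -0.19 (95% interval -0.49 to 0.11, edgeR) did not pass (Benjamini-Hochberg adjusted p = 0.34). The gene on the opposite strand there, TTC6, had 6, 3 and 3 counts with miR-19a and 7, 6 and 2 counts with miR-NC. The strand setting is unknown, so reads of the pair may be mixed. FOXA3 (ENSG00000170608, chr19:45863989-45873797, plus strand) was read only 12, 19 and 16 times with miR-19a and 27, 14 and 5 times with miR-NC. The miR-NC libraries enclosed the miR-19a ones, and the interval of the log2 fold change, -0.77 to 0.71 around -0.03 (edgeR, Benjamini-Hochberg adjusted p = 0.96), leaves its direction undetermined.

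AGR2 was the most abundant member and rose. AGR2 (ENSG00000106541, chr7:16791811-16833433, minus strand) had 4253, 4320 and 4386 counts with miR-19a and 2702, 2423 and 2298 counts with miR-NC. In CPM it stood at 262, 253 and 246 with miR-19a and 161, 149 and 145 with miR-NC, so the groups were far apart relative to their spread. The means were 253.8 ± 8.27 CPM with miR-19a and 151.9 ± 8.46 CPM with miR-NC (SD, n = 3 each). The ratio was 1.67 and the log2 fold change 0.74 (SE 0.041, edgeR, Benjamini-Hochberg adjusted p = 2.5e-24), the most precise among the 10. The isomerase and the gel-forming mucins thus lay on opposite sides of their miR-NC levels.

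Per unit of transcript length (authors' FPKM), AGR2 led in both arms, at 88.6 with miR-19a and 53.8 with miR-NC, followed by FOXA2 at 13.8 with miR-19a and 15.6 with miR-NC. MUC5AC took the next place with miR-NC only. Its FPKM was 1.91 ± 0.20 with miR-19a, below MUC13 (3.31) and MUC1 (3.26), whose ranges overlapped there. With miR-NC its FPKM was 5.06 ± 0.29, above MUC13 (3.09) and MUC1 (1.69). MUC5B stood at 0.760 FPKM with miR-19a and 1.06 FPKM with miR-NC, and SPDEF at 0.347 FPKM with miR-19a and 1.25 FPKM with miR-NC. FOXA3 stood at 0.417 FPKM with miR-19a and 0.430 FPKM with miR-NC, and MUC16 was lowest in both arms, at 0.0367 FPKM with miR-19a and 0.0333 FPKM with miR-NC. With miR-NC the ranges of MUC1 and FOXA1, of FOXA1 and SPDEF, and of SPDEF and MUC5B overlapped, as did those of FOXA3 and SPDEF with miR-19a, so the order of these pairs is not fixed.

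The FPKM level of MUC5AC against other genes depends on the gene model behind it. Count and FPKM together imply the transcript length that was used, and for MUC5AC this was 5932 bp, against 17448 bp for its exons in GENCODE v29, a ratio of 0.340. Only 135 of 11344 genes with an FPKM of at least 1 in every library (1.19%) had a lower ratio, and the median was 1.00. MUC1 was given 2400 bp against 4717 bp, and the other 8 members lay close to their full length. The sources used here do not give which stretch of MUC5AC was counted. The comparison between the arms uses the same model in every library.

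**Figure D3:**
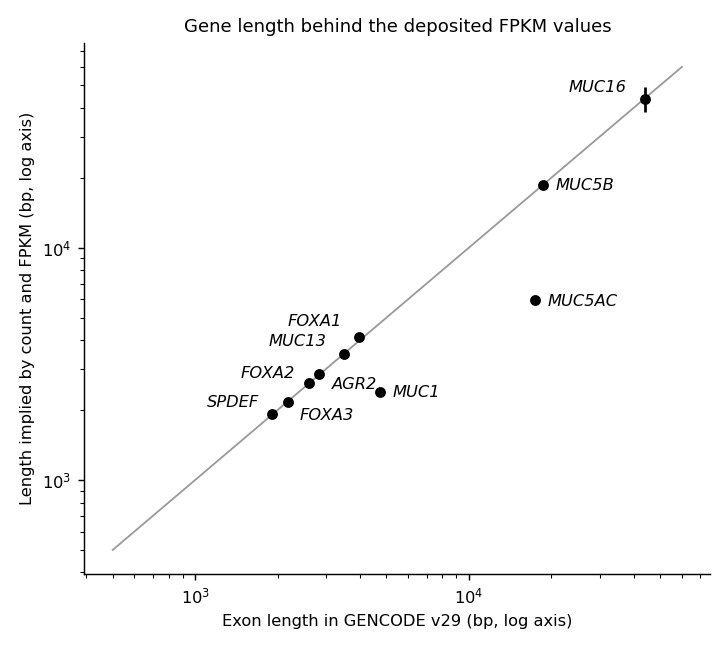
Transcript length implied by the deposited count and FPKM (bp, log axis) against the summed exon length in GENCODE v29 (bp, log axis) for the 10 genes; points are medians over the 6 libraries, vertical bars their range, and the line marks equal lengths. MUC5AC lies far below the line at a ratio of 0.340 and MUC1 below it at 0.509, and the other 8 lie on or near it.

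Promoter windows, 250 bases before to 50 after the RefSeq start (GRCh38.p14), were read for 7 of the 10 members. MUC5AC, MUC5B and FOXA2 had no entry. They are shown for SPDEF (chr6:34556280-34556579, minus strand), MUC1 (chr1:155192866-155193165, minus strand) and AGR2 (chr7:16804950-16805249, minus strand), the members with an entry that passed the test. Capitals mark matches, on either strand, to the forkhead strings TGTTTAC or TATTTAC and to AGGAAG, a string common to sites of many ETS factors. It was not chosen as a site of SPDEF itself, and whether SPDEF binds any of these matches was not tested.
SPDEF promoter: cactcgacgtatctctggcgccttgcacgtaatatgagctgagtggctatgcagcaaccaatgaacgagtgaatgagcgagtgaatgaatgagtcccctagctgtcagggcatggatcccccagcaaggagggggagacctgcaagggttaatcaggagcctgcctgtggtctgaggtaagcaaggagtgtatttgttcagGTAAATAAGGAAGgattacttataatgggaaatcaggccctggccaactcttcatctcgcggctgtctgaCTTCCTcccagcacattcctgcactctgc
MUC1 promoter: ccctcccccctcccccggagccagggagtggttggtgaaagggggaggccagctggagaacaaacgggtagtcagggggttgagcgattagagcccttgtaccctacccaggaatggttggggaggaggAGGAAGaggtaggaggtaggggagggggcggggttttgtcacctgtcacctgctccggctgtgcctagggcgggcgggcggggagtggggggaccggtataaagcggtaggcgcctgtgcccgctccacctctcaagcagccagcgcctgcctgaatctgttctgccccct
AGR2 promoter: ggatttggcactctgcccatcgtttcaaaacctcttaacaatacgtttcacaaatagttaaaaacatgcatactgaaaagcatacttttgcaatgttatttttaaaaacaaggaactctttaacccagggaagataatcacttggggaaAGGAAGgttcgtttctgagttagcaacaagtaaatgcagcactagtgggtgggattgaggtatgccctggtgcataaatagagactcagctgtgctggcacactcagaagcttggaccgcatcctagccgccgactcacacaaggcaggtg
The SPDEF window holds a forkhead match starting at -49 that runs directly into an ETS match at -42, and a further ETS match at 21. MUC1 has an ETS match at -121 and AGR2 has one at -101. Forkhead strings were in 1 of the 7 windows, against 6.05% of 27305 promoters, and ETS strings in 5 of the 7, against 33.7%. A match describes letters only.

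Most other mucin genes were barely read in these cells. Of 18 further mucins and mucin-like genes, 5 passed the filter and 4 had 0 counts throughout; MUC2, the intestinal gel-forming mucin, named after its values were seen, had 5, 8 and 3 counts with miR-19a and 5, 12 and 6 counts with miR-NC. CD164, a sialomucin of endosomes and the cell surface, fell to 105 ± 7.16 CPM with miR-19a, against 154 ± 5.42 CPM with miR-NC (SD, n = 3 each), a log2 fold change of -0.55 (SE 0.045, edgeR, Benjamini-Hochberg adjusted p = 1.1e-16). Its 3′ UTR holds more than 1 TTGCACA seed match. MUC12, a membrane mucin, rose to 1.98 ± 0.116 CPM with miR-19a, against 1.19 ± 0.327 CPM with miR-NC (edgeR, Benjamini-Hochberg adjusted p = 0.030), a call that was lost under 8 of 14 alternatives (adjusted p up to 0.336). MUC3A (log2 fold change 0.36), MCAM (-0.16) and OVGP1 (0.53) did not pass. The list's median was 0.36.

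Of 31 genes for products and regulators of goblet and club cells, 8 were tested and 10 had 0 counts in all libraries, and the 21 with an identifier that were not tested had at most 7 counts in any library. Among the 8, 4 rose, 1 fell and 3 did not pass, with a median of 0.33. That is 62.5% past the threshold, against 43.9% of all genes tested. The lists were chosen with earlier results of these data known, so nothing is read from such shares, here or below. TFF1, a trefoil peptide secreted with mucin, rose to 9.04 ± 1.40 CPM with miR-19a, against 4.57 ± 2.05 CPM with miR-NC (log2 fold change 0.98, SE 0.17, edgeR, Benjamini-Hochberg adjusted p = 1e-06). CREB3L1, a factor of secretory capacity, rose by a log2 fold change of 0.89, while its relative CREB3L4 fell by 0.65 on the log2 scale. CEACAM6, a surface glycoprotein, rose by 0.54, but its groups overlapped and the call was lost under 3 of 15 alternatives. With limma on log2(FPKM + 1), 3 of the 8 passed. The share of all genes passing that test is not given here, so nothing is read from this count.

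Of 28 enzymes that build mucin sugar chains 22 were tested, and 14 rose, 3 fell and 5 did not pass, with a median log2 fold change of 0.28. That is 77.3% past the threshold, against 43.9% of all genes tested. GALNT2, which starts O-linked chains, rose to 784.5 ± 2.56 CPM with miR-19a, against 409.1 ± 1.31 CPM with miR-NC (SD, n = 3 each), a log2 fold change of 0.94 (SE 0.036, edgeR, Benjamini-Hochberg adjusted p = 4.4e-33). ST3GAL2, a sialyltransferase, rose by 0.64 and B4GALT1, a galactosyltransferase, by 0.41. GALNT18 fell by 0.51, C1GALT1C1, the chaperone of the core 1 synthase, by 0.23 and GALNT10 by 0.18 on the log2 scale.

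Of 18 genes of granule release and airway surface fluid 14 were tested, with 8 higher, 2 lower and 4 not past the threshold, and a median of 0.23. In this list 71.4% passed, against 43.9% of all genes tested. The SNARE proteins STX3 (0.69) and VAMP8 (0.64) and the vesicle-priming protein UNC13B (0.56) rose. UNC13D, a priming protein, fell by 0.54 on the log2 scale.

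Signals known to act upstream of MUC5AC moved in both directions, with a median log2 fold change of 0.09. Of 32 genes 31 were tested, and 11 rose, 8 fell and 12 did not pass. That is 61.3% past the threshold, against 43.9% of all genes tested. ADAM17, the protease that sheds EGFR ligands, rose to 142.5 ± 4.56 CPM with miR-19a, against 80.0 ± 2.00 CPM with miR-NC (edgeR, Benjamini-Hochberg adjusted p = 6.8e-25). HBEGF, one such ligand, rose to 23.8 ± 1.24 CPM with miR-19a, against 9.53 ± 0.680 CPM with miR-NC, and the IL-4 and IL-13 receptor chain IL4R rose by 0.85 on the log2 scale. FOSL1, an AP-1 subunit, fell to 51.8 ± 1.56 CPM with miR-19a, against 90.9 ± 3.69 CPM with miR-NC (edgeR, Benjamini-Hochberg adjusted p = 1.3e-21). The EGFR ligand EREG fell by 0.54 and the interleukin receptor IL1R1 by 0.60 on the log2 scale. Chosen after their values were seen, to complete the axis, AREG rose by 0.95 and IL13RA1 by 0.55, while TGFA fell by 0.62, EGFR by 0.39 and STAT6 by 0.24 on the log2 scale.

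Each of the 3 falling genes with the smallest adjusted p in that list carries a seed match of at least 7 bases in its 3′ UTR. They are printed as the contrast to the members, whose 3′ UTRs hold none, from GENCODE v29 transcripts (GRCh38) with the match in capitals: FOSL1 at chr11:65892662-65892668 (minus strand), EREG at chr4:74388440-74388446 (plus strand) and IL1R1 at chr2:102178363-102178370 (plus strand).
FOSL1 site: tagcacaaTTTGCACtaaatcag
EREG site: ctttttatTTTGCACtctgtaat
IL1R1 site: aggagcaaTTTGCACAtgtaacat
Over the 6 gene lists together, 22 tested genes had a 3′ UTR match of at least 7 bases, of which 7 rose, 7 fell and 8 did not pass, with a median log2 fold change of 0.00. Of the 77 with no match or only the 6-base core, 41 rose, 11 fell and 25 did not pass, with a median of 0.24. Over all genes tested, 23.0% were higher and 20.9% lower with miR-19a. B4GALT1, SOX4 and SOX9 rose although they carry a match of at least 7 bases.

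Epithelial transcription factors were the last list, with 19 of 24 tested, 10 higher, 3 lower and 6 not past the threshold, and a median of 0.25. In this list 68.4% passed, against 43.9% of all genes tested. ELF3, an ETS factor of epithelial differentiation, rose to 145.3 ± 7.51 CPM with miR-19a, against 94.3 ± 0.408 CPM with miR-NC (SD, n = 3 each), and SOX9 (log2 fold change 0.91) and SOX4 (0.66) rose too. EHF, the ETS relative of SPDEF and ELF3, fell to 2.18 ± 0.493 CPM with miR-19a, against 4.91 ± 0.634 CPM with miR-NC (log2 fold change -1.16, SE 0.20, edgeR, Benjamini-Hochberg adjusted p = 1.4e-06). The basal-cell factor TP63 fell by 0.93 on the log2 scale. The ETS factors SPDEF, EHF and ELF3 therefore did not share a direction.

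**Figure D4:**
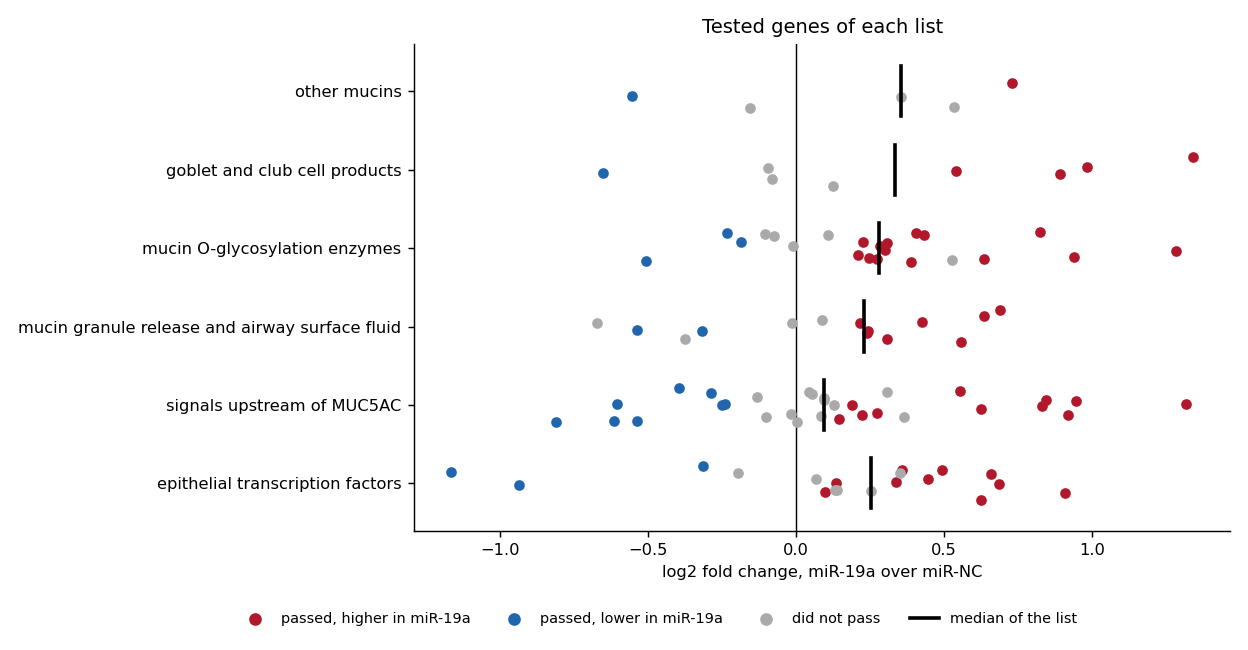
Log2 fold change, miR-19a over miR-NC, of every tested gene in 6 lists around airway mucins; red points passed an adjusted p of 0.05 and were higher with miR-19a, blue points passed and were lower, grey points did not pass, and black bars are list medians. Medians ran from 0.09 (signals upstream of MUC5AC, 11 higher and 8 lower) to 0.36 (other mucins), with 14 of 22 O-glycosylation enzymes higher. Over all genes tested, 23.0% were higher and 20.9% lower.

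Keratins among the epithelial markers were abundant, whereas EPCAM was low. Alveolar type 2 markers were mixed, with the surfactant protein genes nearly absent and ABCA3 clearly read. Summed epithelial markers stood at 7520 to 7850 CPM with miR-19a and 6940 to 7104 CPM with miR-NC. Most of that was KRT7, KRT8 and KRT18, at 2135, 3187 and 2165 CPM with miR-19a and 2581, 2622 and 1660 CPM with miR-NC. CDH1 stood at 34.8 CPM with miR-19a and 39.0 CPM with miR-NC, and EPCAM at 1.93 CPM with miR-19a and 1.51 CPM with miR-NC. Of the 6 epithelial markers, 3 were higher and 2 lower, against 23.0% higher and 20.9% lower over all genes tested. The lower call of CDH1 was lost under 7 of 15 alternatives. The 5 surfactant protein genes, markers of alveolar type 2 cells, had between 0 and 2 counts in every library. The whole alveolar type 2 list summed to 50.1 to 59.3 CPM with miR-19a and 47.7 to 55.3 CPM with miR-NC. Most of that was ABCA3, at 52.4 ± 4.57 CPM with miR-19a and 48.0 ± 4.71 CPM with miR-NC. NAPSA stood at 1.51 CPM with miR-19a and 1.47 CPM with miR-NC, and LAMP3 at 0.390 CPM with miR-19a and 0.658 CPM with miR-NC. Fibroblast markers summed to 27.8 to 32.7 CPM with miR-19a and 13.4 to 16.0 CPM with miR-NC, led by COL1A1 (25.4 ± 1.75 CPM with miR-19a and 8.84 ± 0.982 CPM with miR-NC). THY1 fell by 0.52 on the log2 scale, and the other 6 fibroblast markers had at most 10 counts in any library. Leukocyte markers summed to 3.28 to 3.81 CPM with miR-19a and 1.77 to 2.71 CPM with miR-NC. Most of that was CD14 (2.91 CPM with miR-19a and 1.90 CPM with miR-NC), and no other leukocyte marker passed the filter. Ciliated markers summed to 2.28 to 4.16 CPM with miR-19a and 2.08 to 2.71 CPM with miR-NC. Among them TPPP3 rose, to 1.86 CPM with miR-19a against 0.656 CPM with miR-NC. RSPH1, the only other ciliated marker tested, did not pass. Basal markers summed to 3.05 to 4.43 CPM with miR-19a and 4.49 to 4.96 CPM with miR-NC. Endothelial markers summed to at most 0.392 CPM with miR-19a and 0.185 CPM with miR-NC. What part these levels have in the mucin results was not tested.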

How the data were processed

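Poly(A)-selected RNA of 6 A549 samples was sequenced as read pairs, per the labels' protocols. The submitters' processing notes name bcl2fastq 2.17.1.14 and no later tool. Not given in the sources used here are the aligner, the counter, the build, the annotation, the strand setting and the treatment of reads in mucin repeats. The deposited table holds whole-number counts, not normalized, for 57905 identifiers. It also holds FPKM from the authors (so called per the file headers) to 2 decimals, a unit corrected for transcript length and sequencing depth. Symbols came from a names table (51996 identifiers) and GENCODE v29 (342), and 5567 had none. Every value column was matched to a sample by title.

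The test on the counts was the two-sided quasi-likelihood test of edgeR 4.0.16 in R 4.3.3, with TMM factors and Benjamini-Hochberg adjustment over all 15053 genes with a mean count of at least 10. A change was called at an adjusted p of 0.05. Intervals are 95% and CPM are TMM-scaled. The procedure was also run on counts simulated with the same dispersion for every gene, unlike real data, and nothing is read from that run. Alternatives were DESeq2 1.42.0, limma 3.58.1 on log2(FPKM + 1) and log2(FPKM + 0.1), other scalings and filters, a replicate block and leaving out each library. The members and gene lists were chosen with earlier results of these data known. Of 201 list entries 6 had no identifier. Named genes are the members, every tested gene of the other mucins, genes overlapping a member, the 5 genes most like MUC5AC across libraries, and from each other list up to 3 rising and 3 falling genes with the smallest adjusted p. Some of these genes, and seed matches in coding sequence, are not reported here. The 3′ UTRs searched were those of 1 transcript a gene, the one with the longest coding sequence.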

Additional observations from a re-analysis of the deposited data

How the results depend on the processing

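Every member except FOXA3 kept its direction under every alternative that could test it. MUC5AC stayed between -1.44 and -1.06 on the log2 scale, SPDEF between -2.20 and -0.74, MUC1 between 0.68 and 1.23 and AGR2 between 0.70 and 0.78. The weakest SPDEF and MUC5B (-0.23) values came from log2(FPKM + 1). FOXA3, at most 27 counts a library, turned positive with limma on log2(FPKM + 0.1) (0.12) and log2(FPKM + 1) (0.0056) and with the replicate block (0.0339), and ran from -0.43 to 0.62 when single libraries were left out. With a mean FPKM of at least 1 as the filter, 3 of the 5 members still tested besides MUC5AC passed (2 higher, 1 lower), because low genes left the test, and 6023 of all 12452 genes passed. DESeq2, no filter and the replicate block gave 4 of the 9 members other than MUC5AC, and leaving out single libraries gave 4 to 5 of these 9. Of all genes, 6615 passed in the main test, 5551 with DESeq2, 6500 with the replicate block and 5810 to 6277 without single libraries. Replicate numbers do not pair the samples (correlations of -0.00284, 0.00642 and -0.0307 between same-numbered libraries). Among the other mucins, 1 rather than 2 genes passed with DESeq2 and limma, because MUC12 was lost. Of 710 checks of 48 genes, 672 kept the call, 33 lost it and 5 turned direction, all FOXA3. The 48 genes were the members and the list genes with the smallest adjusted p in the main test. The alternatives use the same libraries, and a gene that passed in neither fit also counts as keeping its call. The choice thus favoured kept calls, and nothing is read from their share. Low counts (at most 46 in any library) limit MUC16, SPDEF and FOXA3. The SE and intervals from edgeR reflect only the spread among these 6 libraries, which may be technical.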

Other observations

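Across the 6 libraries, 119 of 10253 protein-coding genes with a mean count of at least 100 had a profile whose Pearson r with MUC5AC exceeded 0.99. The most alike included ANKS3 (r = 0.999), HNRNPUL1 (0.998), ISYNA1 (0.998) and DYNC2I2 (0.998). Their log2 fold changes were -0.51, -0.35, -0.39 and -0.47, all smaller in size than that of MUC5AC. The measure is a description without a test, since the libraries fall into 2 groups and any gene lower in all miR-19a libraries by an even amount scores high.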
